A study of Rattus norvegicus with 14 samples.

Results

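The genes described here are Col1a1, Sparc and Bgn, which code for a collagen chain, a matrix glycoprotein and a matrix proteoglycan made in liver by stellate cells and fibroblasts. They were chosen as the probe sets whose platform annotation gives 1 of these 3 symbols, and they are 3 of the 3181 genes and unnamed features that remained with 1 probe set a gene. The array held 10 probe sets for them, 4 each for Col1a1 and Sparc and 2 for Bgn, of 4110 named or unnamed probe sets analysed. The choice of genes drew on signals of these same arrays, including the Kyoto time course. For these 3 genes, values in Kyoto livers and differences between the strains are therefore given as a description with no test.

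Liver RNA was measured on 14 one-colour Affymetrix arrays, each carrying biotin-labelled RNA of 1 sample on probe sets, groups of short probes for 1 transcript. Kyoto rats, a strain named in the labels only by that word, ate chow with 1% orotic acid for 1, 3 or 14 days (2 arrays each). Wistar rats ate standard chow (control, 3 arrays) or the chow with 1% orotic acid for 3 days (2 arrays) or 14 days (3 arrays). Orotic acid is an intermediate in the making of pyrimidines, and eating it leads to a fatty liver in rats that can be reversed. Every sample was the left lateral lobe of a rat's liver. The labels give no age, sex or genotype beyond the strain, and they do not state that each array was a separate animal, so p-values measure the spread between these samples, which may be technical. Kyoto livers without orotic acid were not analysed here, so the Kyoto time course starts from day 1 of feeding.

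Type I collagen is a triple helix of alpha 1 chains, the product of Col1a1, and an alpha 2 chain, the product of Col1a2, and it is the main fibre-forming collagen of scar tissue. Hepatic stellate cells store retinoids in a healthy liver and turn into matrix-producing myofibroblasts after injury. Sparc, also called osteonectin, is a secreted glycoprotein that binds collagen and calcium and acts on how fibres are laid down. Bgn codes for biglycan, a small leucine-rich proteoglycan that binds collagen fibres and transforming growth factor beta.

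Of the 3 genes, Sparc alone matched the RefSeq table of promoters used here. The 250 bases before its start are shown because Sparc is the gene with the lowest correlation between its own probe sets. They lie at chr10:40038817-40039066 on the minus strand of GRCr8, and capitals mark GGAGG and its reverse complement CCTCC.
Sparc promoter: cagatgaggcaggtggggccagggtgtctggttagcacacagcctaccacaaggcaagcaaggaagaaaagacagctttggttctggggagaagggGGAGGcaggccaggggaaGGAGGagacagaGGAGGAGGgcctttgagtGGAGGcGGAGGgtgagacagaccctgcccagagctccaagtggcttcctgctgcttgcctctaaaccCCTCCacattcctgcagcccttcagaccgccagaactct
The window held 7 matches of GGAGG over both strands, 2 of which overlap. Of 33469 rat promoters of the same length, 64.7% held at least 1 match and 1.52% held as many or more. Repeats of this kind are known from the Sparc promoters of mouse and cattle. The TATA box letters TATAAA had 0 matches in this window on either strand, and 12.9% of promoters held them. The letters CCAAT also had 0, and 34.0% of promoters held them. A match of letters is a description and shows no bound factor.

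Signals below are normalized and on the log2 scale, with values under 6.85 set to that floor. Of the 14 arrays, 1 went against its label and 1 stood apart. Of all other arrays, Kyoto day 3 replicate 2 was the most like the array labelled Wistar control 2, with r = 0.960 over tested features, which are not independent replicates of each other. Its signal of Ces2e, a carboxylesterase gene, lay at the floor as on the 6 Kyoto arrays, while Wistar controls 1 and 3 had 10.10 and 10.76. It stays in its labelled group, and the differences from controls of the probe sets that represent the genes, and the counts over the 10 probe sets against controls, are given with and without it. Kyoto day 1 replicate 1, 1 of the 2 arrays behind every difference from Kyoto day 1, was the least like the others, with a median r of 0.895 and a highest r of 0.928, where the other 13 arrays had a highest r of at least 0.957. Blank rows on that array, 374 in all, were left out on every array. The hepatocyte gene Alb, for albumin, ran from 14.37 to 14.72 on all arrays.

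Col1a1 signal in Kyoto livers was highest at day 1 by the probe set with the highest mean, M27207mRNA_s_at, which represents the gene. It was 8.81 and 9.35 at day 1, 8.12 and 6.91 at day 3, and 8.36 and 7.94 at day 14. Both later groups lay wholly below day 1 and overlapped with each other. The difference was -1.57 ± 0.60 at day 3 minus day 1 (2.97-fold lower, SE of the fit, 2 against 2 arrays) and -0.94 ± 0.60 at day 14 minus day 1 (1.91-fold lower). In whole tissue, fewer cells that express a gene and less RNA per cell cannot be told apart. The day 3 difference rested on how far 1 array lay from the other: it was -0.97 without Kyoto day 3 replicate 2 and -2.18 without replicate 1. Without Kyoto day 1 replicate 1, it was -1.84 at day 3 and -1.21 at day 14.

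The other 3 Col1a1 probe sets did not all show the low day 3. The set rc_AI231472_s_at had 8.06 and 7.88 at day 1, 7.94 and 8.80 at day 3, and 7.67 and a value at the floor at day 14. Its day 3 mean was the highest of the time course and its day 14 arrays lay below all earlier ones. Set Z78279_g_at had 7.31 and 8.0 at day 1 and 7.39 and 7.87 at day 3, with 7.38 and a value at the floor at day 14. These day 1 and day 3 arrays had nearly the same mean, 7.66 and 7.63. Set Z78279_at was dim, with 8 of 14 arrays at the floor, and in Kyoto livers it was above the floor on both day 1 arrays (7.04 and 7.07) and at or within rounding of it later.

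**Figure D1:**
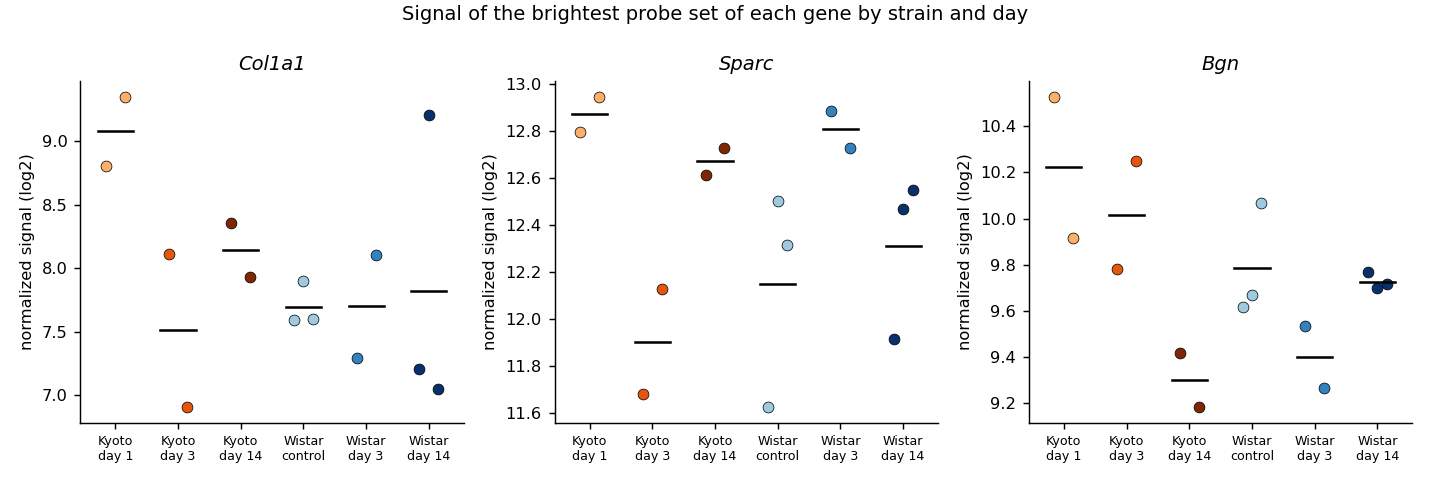
Normalized log2 signal of the probe set with the highest mean of each gene (Col1a1 M27207mRNA_s_at, Sparc rc_AA892248_at, Bgn U17834_at), by strain and day. Points are arrays and bars are group means; the vertical axes differ and do not start at 0. Both Kyoto day 1 arrays lie above both day 3 arrays for Col1a1 and Sparc, and 1 Wistar day 14 array, at 9.21, stands above the rest of its group for Col1a1.

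Sparc differed between days most at day 3 by its representing set, rc_AA892248_at, an expressed sequence tag. This set had 12.80 and 12.95 at day 1, 11.68 and 12.13 at day 3, and 12.61 and 12.73 at day 14 of feeding in Kyoto livers. Day 3 lay below both other days, and day 14 lay close under day 1. The difference was -0.97 ± 0.29 at day 3 minus day 1 (1.96-fold lower), -0.20 ± 0.29 at day 14 minus day 1 and 0.77 ± 0.29 at day 14 minus day 3. Without Kyoto day 1 replicate 1, it was -1.04 at day 3 minus day 1 and -0.28 at day 14 minus day 1. The mean of rc_AA892248_at over all arrays was 12.42, against 8.78, 7.65 and 7.03 for the other Sparc sets. Whether it follows Sparc RNA better than those sets was not tested.

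The set Y13714_at, the Sparc set with the next highest mean, gave another course. It had 9.07 and 9.30 at day 1, 9.07 and 9.66 at day 3, and 8.0 and 8.11 at day 14 in Kyoto livers. Days 1 and 3 overlapped, and both day 14 arrays lay below all 4 earlier ones. Its difference was 0.18 at day 3 minus day 1 and -1.13 at day 14 minus day 1, a low point at day 14 in place of day 3.

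The last 2 Sparc sets were dim. Set rc_AA946313_s_at had 8.11 and 8.02 at day 1 and 7.67 and 8.07 at day 3, against 7.79 and a value at the floor at day 14. Set rc_AA891204_s_at had 6.88 and 7.02 at day 1, 7.21 and 7.69 at day 3, and the floor on both day 14 arrays, so that 2 of 4 Sparc sets had their highest Kyoto mean at day 3. The difference at day 14 minus day 1 was -0.74 for rc_AA946313_s_at and -0.10 for rc_AA891204_s_at, each understated where an array lies at the floor.

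**Figure D2:**
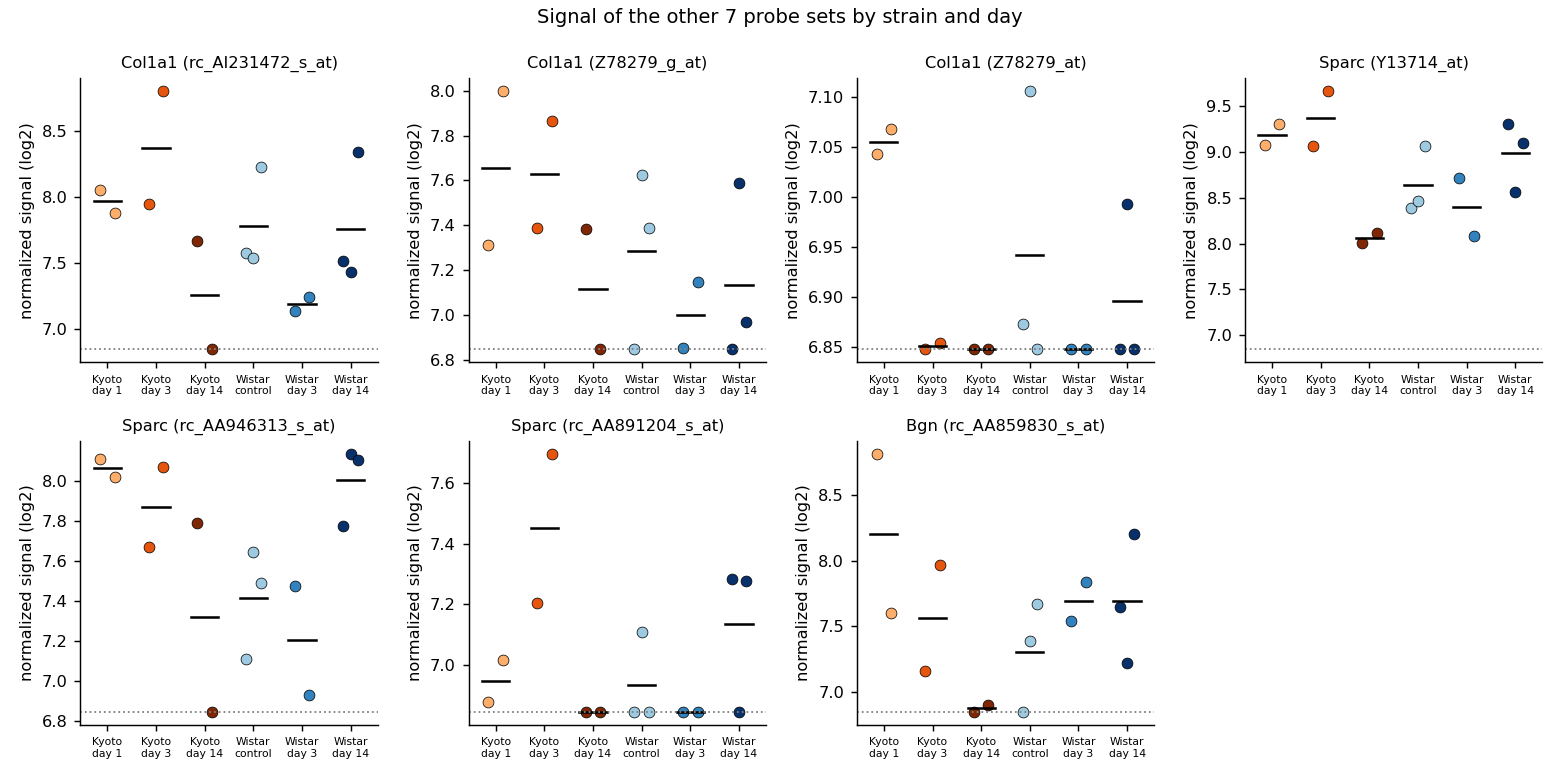
Normalized log2 signal of the other 7 probe sets of Col1a1, Sparc and Bgn, by strain and day. Points are arrays, bars are group means and the dotted line is the floor of 6.85; the vertical axes differ and do not start at 0. At least 1 Kyoto day 14 array lies at the floor in 6 of the 7 panels, and the day 3 arrays of Sparc Y13714_at reach 9.66.

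Bgn signal in Kyoto livers was lowest at day 14 by both of its probe sets. Set U17834_at had 10.53 and 9.91 at day 1, 9.78 and 10.25 at day 3, and 9.42 and 9.18 at day 14. The first 2 days overlapped and both day 14 arrays lay below all 4 of their arrays. The difference was -0.21 ± 0.28 at day 3 minus day 1 and -0.92 ± 0.28 at day 14 minus day 1 (1.89-fold lower). Without Kyoto day 1 replicate 1, it was 0.10 at day 3 and -0.61 at day 14. Set rc_AA859830_s_at had 8.81 and 7.60 at day 1, 7.16 and 7.97 at day 3, and 6.90 and a value at the floor at day 14. Its difference at day 14 minus day 1 was -1.33, in the same direction as the other set's.

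Over the 10 probe sets, the direction at day 14 was shared between sets and that at day 3 was not. At day 14 all 10 had a lower mean than at day 1. Of all 4110 probe sets, 45.2% had a lower mean, 39.4% a higher one and the rest an equal one. With no overlap of arrays, 9 of the 10 were lower, where 15.5% of all were. Some of these gaps were small. Sparc rc_AA892248_at had 12.80 and 12.95 at day 1, against 12.61 and 12.73 at day 14, and rc_AA891204_s_at had 6.88 and 7.02, against the floor. At day 3, 7 of 10 had a lower mean than at day 1 (43.1% of all) and 3 were lower without overlap (11% of all); 1 was higher without overlap (11% of all). At day 14 against day 3, 8 of 10 were lower (43.5% of all), 6 of them without overlap (16.9% of all), and 1 was higher without overlap (14.5% of all). The genes were chosen with this time course known, the sets of a gene share its transcript and days 3 and 14 share the 2 day 1 arrays, so these counts are a description. The median difference of the 10 sets at day 14 minus day 1 was -0.73, and it was 0 over all probe sets. The count at day 3 depended on 1 array: without Kyoto day 3 replicate 1 it was 4 of 10. Without Kyoto day 1 replicate 1, 10 of 10 sets were lower at day 14 and 6 of 10 at day 3.

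**Figure D3:**
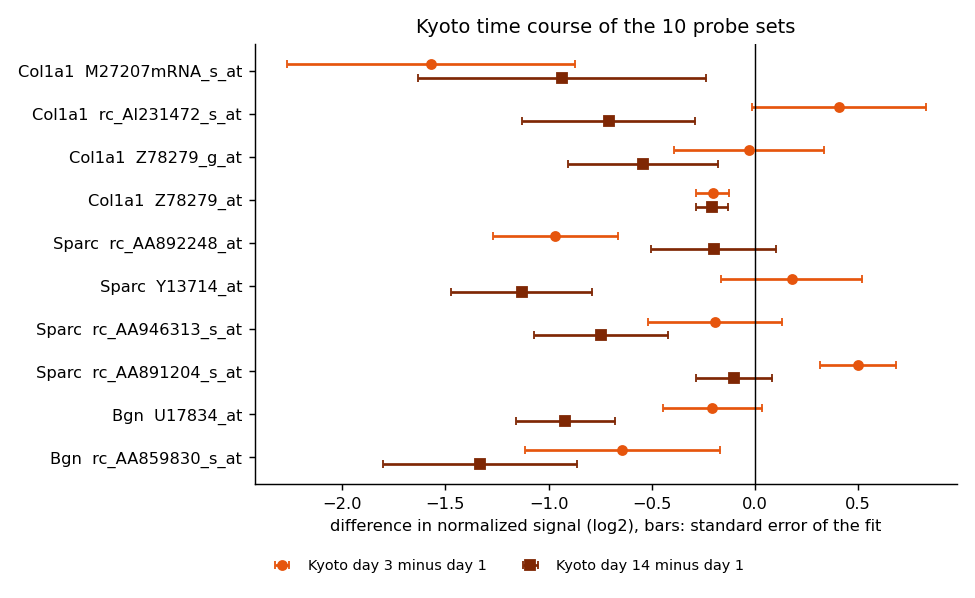
Difference in normalized log2 signal of the 10 probe sets at Kyoto day 3 (circles) and Kyoto day 14 (squares), each minus day 1; bars are standard errors of the fit to all probe sets (2 against 2 arrays). All 10 squares lie left of 0, from -0.10 to -1.33, while circles lie on both sides, from -1.57 to 0.50.

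Wistar livers were tested because the genes were not chosen on the comparisons between Wistar groups. The choice still drew on signals of these same arrays. None of the 3 genes passed the test at 14 days of orotic acid against controls on standard chow. By limma, 0 of 1909 features had an adjusted p under 0.05 (0% of features; 99, or 5.19%, had an unadjusted p under 0.05). Col1a1 had 7.21, 9.21 and 7.05 at day 14, against 7.60, 7.90 and 7.60 in controls. The high array, Wistar day 14 replicate 2, lay above every other Wistar array, and the other 2 lay below all controls. The difference was 0.12 ± 0.49 (95% interval -0.93 to 1.17, limma adjusted p = 0.992), and it was -0.57 without that array. The other 3 Col1a1 sets gave -0.02 to -0.15, each overlapping with controls. The high array was also the highest of its group in Z78279_g_at and Z78279_at, at 7.59 and 6.99, but the lowest in rc_AI231472_s_at, where it had 7.43 beside 7.51 and 8.34.

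Sparc at day 14 in Wistar livers overlapped with controls by the set that represents the gene. Set rc_AA892248_at had 11.91, 12.47 and 12.55 at day 14, against 11.62, 12.50 and 12.32 in controls, a difference of 0.16 ± 0.24 (95% interval -0.35 to 0.68, limma adjusted p = 0.992). The sign turned without Wistar control 1, at -0.10. The 3 other Sparc sets also had a higher mean at day 14, by 0.35 for Y13714_at, 0.59 for rc_AA946313_s_at and 0.20 for rc_AA891204_s_at. Of these, rc_AA946313_s_at had no overlap, with 7.77, 8.13 and 8.11 at day 14, against 7.11, 7.64 and 7.49 in controls (0.59 ± 0.26, limma adjusted p = 1 with each probe set tested). It was the 1 set of the 10 that was higher with no overlap, where 2.75% of all probe sets were.

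For Bgn, set U17834_at had 9.77, 9.70 and 9.72 at day 14, against 9.62, 9.67 and 10.07 in Wistar controls. The day 14 arrays lay close together (SD 0.04) and inside the control range, and the difference was -0.06 ± 0.23 (95% interval -0.55 to 0.44, limma adjusted p = 0.992). Set rc_AA859830_s_at gave 0.39 ± 0.38. Without the array labelled Wistar control 2, the difference at day 14 was 0.22 for Col1a1, 0.34 for Sparc and -0.12 for Bgn. Over the 10 probe sets, 6 had a higher mean at day 14 than in controls (42.4% of all probe sets), and 8 without that array.

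At day 3 in Wistar livers, the same test called 0 of 1909 features (0%; 200, or 10.5%, had an unadjusted p under 0.05). Sparc set rc_AA892248_at had 12.89 and 12.73 at day 3, against 11.62, 12.50 and 12.32 in controls. After normalization both fed arrays lay above all 3 controls, and the difference was 0.66 ± 0.27 (1.58-fold, 95% interval 0.08 to 1.23, limma adjusted p = 0.405). In the deposited signals they did not, since the array labelled Wistar control 2 had 7073, above the 6980 and 6159 of day 3. With the signals as the authors scaled them the difference was 0.35, with arrays centred on their medians 0.34, and by the mean of all Sparc sets 0.03. The lack of overlap upward after normalization was shared by 14.5% of the 1909 features. The other 3 Sparc sets had a lower mean at day 3, by -0.09 to -0.24. For Bgn, U17834_at had 9.54 and 9.27 at day 3, both below the 9.62, 9.67 and 10.07 of controls, as 19.6% of features were. The difference was -0.38 ± 0.26 (limma adjusted p = 0.643), and rc_AA859830_s_at had 0.39 ± 0.43, in the other direction. Col1a1 by M27207mRNA_s_at had 7.30 and 8.11 at day 3, on both sides of the controls, with a difference of 0.00 ± 0.55 (limma adjusted p = 0.999). The other 3 Col1a1 sets had a lower mean at day 3, by -0.09 to -0.59, and rc_AI231472_s_at, at -0.59, had no overlap with controls. Without the array labelled Wistar control 2, the differences of the sets that represent the genes were 0.84 for Sparc, -0.44 for Bgn and 0.10 for Col1a1. Of the 10 sets, 7 had a lower mean at day 3 than in controls (46.1% of all probe sets), and 6 without that array. With all arrays and after normalization, 2 were lower without overlap (13.7% of all) and 1, Sparc rc_AA892248_at, was higher without overlap (12.1% of all).

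At day 14 against day 3 in Wistar livers, 0 of 1909 features were called (0%; 85, or 4.45%, had an unadjusted p under 0.05). The difference was 0.12 ± 0.55 for Col1a1, -0.50 ± 0.27 for Sparc and 0.33 ± 0.26 for Bgn (limma adjusted p = 0.994 for each). The 3 Bgn arrays at day 14 lay above both day 3 arrays, as did 11.5% of features. With each probe set tested, 8 of the 10 sets had a higher mean at day 14 (45.1% of all), and 3 were higher without overlap (8.15% of all). The set rc_AA892248_at, which represents Sparc, was lower without overlap, as were 7.08% of all sets. In the deposited signals, before normalization, it overlapped, with 7160 on Wistar day 14 replicate 3, against 6980 and 6159 at day 3. The smallest p of the 10 sets was that of Sparc rc_AA946313_s_at, at 0.80 ± 0.30 (limma adjusted p = 0.951).

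Lot batch 1 is named in the labels of 11 arrays, and 3 Wistar arrays, 1 in each group, have none named. Within lot batch 1, by the sets that represent the genes, the difference at Wistar day 14 minus control was 0.46 for Col1a1, 0.13 for Sparc and 0.09 for Bgn, with 2 arrays a group. Between the arrays with no lot batch it was -0.55 for Col1a1, 0.23 for Sparc and -0.35 for Bgn. At day 3 minus control, Sparc differed by 0.82 within lot batch 1 and by 0.41 between arrays with none, and Bgn by -0.11 and -0.80. By these sets, between the arrays within lot batch 1 and those with none, Sparc kept its direction at both days. Col1a1 turned at both days (-0.45 and 0.51 at day 3), and Bgn turned at day 14 and not at day 3. Sparc Y13714_at, in contrast, turned at day 3. Within lot batch 1 it had 8.71 at day 3, against 8.38 and 8.47 in controls, and with none 8.09, against 9.07.

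The order of the 6 groups differed between the genes. For Col1a1 by M27207mRNA_s_at, Kyoto day 1 (9.08 ± 0.38, SD, n = 2) was followed by Kyoto day 14 (8.15 ± 0.30), Wistar day 14 (7.82 ± 1.20, n = 3), Wistar day 3 (7.70 ± 0.57), Wistar control (7.70 ± 0.17, n = 3) and Kyoto day 3 (7.51 ± 0.86). Only Kyoto day 1 and its neighbour had arrays that did not overlap. For Sparc by rc_AA892248_at, the order was Kyoto day 1 (12.87 ± 0.11), Wistar day 3 (12.81 ± 0.11), Kyoto day 14 (12.67 ± 0.08), Wistar day 14 (12.31 ± 0.35), Wistar control (12.15 ± 0.46) and Kyoto day 3 (11.90 ± 0.32). Here only Kyoto day 14 and Wistar day 14 were neighbours with no overlap, and these 2 groups overlapped in the deposited signals, before normalization. For Bgn by U17834_at, it was Kyoto day 1 (10.22 ± 0.43), Kyoto day 3 (10.01 ± 0.33), Wistar control (9.79 ± 0.25), Wistar day 14 (9.73 ± 0.04), Wistar day 3 (9.40 ± 0.19) and Kyoto day 14 (9.30 ± 0.17). Wistar day 14 and Wistar day 3 were its only neighbours with no overlap. By these sets, Kyoto day 1 was the highest group for all 3 genes and the lowest group differed, Kyoto day 3 for Col1a1 and Sparc and Kyoto day 14 for Bgn. By other sets, Kyoto day 3 was the highest group, for Col1a1 rc_AI231472_s_at and for Sparc Y13714_at and rc_AA891204_s_at. No other Col1a1 or Sparc set had Kyoto day 3 as its lowest group.

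Between the strains on matched days, the 10 probe sets lay on different sides. At day 3, 7 had a higher mean in Kyoto livers than in Wistar livers (44.9% of all probe sets), 6 of them without overlap (20.6% of all), and 1 was lower without overlap (17.0% of all). That 1 was Sparc rc_AA892248_at, with 11.68 and 12.13 in Kyoto livers, against 12.89 and 12.73 in Wistar livers. At day 14, 8 of 10 had a lower mean in Kyoto livers (43.8% of all), 3 without overlap (8.95% of all). The 1 set that was higher without overlap (10.7% of all) was again Sparc rc_AA892248_at. In the deposited signals, before normalization, that set overlapped, with 7160 on Wistar day 14 replicate 3, against 5879 and 6382 in Kyoto livers. Averaged over both days, the difference of Kyoto minus Wistar livers on orotic acid was 0.07 ± 0.41 for Col1a1, -0.27 ± 0.20 for Sparc and 0.09 ± 0.19 for Bgn, where 3.25% of all features had an adjusted p under 0.05 by limma. Kyoto day 1 lay above Wistar control in the mean of all 10 sets (43.6% of all), 4 of them without overlap (12.3% of all). Without the array labelled Wistar control 2, 6 of them had no overlap (16.6% of all), but strain and feeding differ together there and cannot be told apart.

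Probe sets of 1 gene did not always run together over the 14 arrays. Correlations here are descriptions over arrays that share groups, with no test. Sparc rc_AA892248_at had r = -0.23 with Y13714_at (rho = -0.09; r = -0.42 without the 2 arrays farthest from the median), 0.07 with rc_AA946313_s_at and -0.38 with rc_AA891204_s_at. On deviations from the group means these were 0.21, 0.54 and 0.29. Among the other 3 Sparc sets, r was 0.71 between Y13714_at and rc_AA891204_s_at and 0.65 between Y13714_at and rc_AA946313_s_at. Between rc_AA946313_s_at and rc_AA891204_s_at it was 0.46. On deviations from the group means these were 0.55, 0.20 and 0.18. For Col1a1, M27207mRNA_s_at had r = -0.23 with rc_AI231472_s_at, 0.47 with Z78279_g_at and 0.64 with Z78279_at. The 2 Bgn sets had r = 0.68 (rho = 0.59, and 0.34 without the 2 farthest arrays). Of 45 pairs among the 10 sets, the 13 pairs within a gene had a median r of 0.47 and the 32 pairs between genes one of 0.36. The highest r of all pairs was between genes, 0.78 for Sparc Y13714_at and Bgn U17834_at (rho = 0.83, and 0.72 without the 2 farthest arrays). On deviations from the group means this pair had 0.51, and the highest r was within a gene, 0.71 for the 2 Bgn sets.

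**Figure D4:**
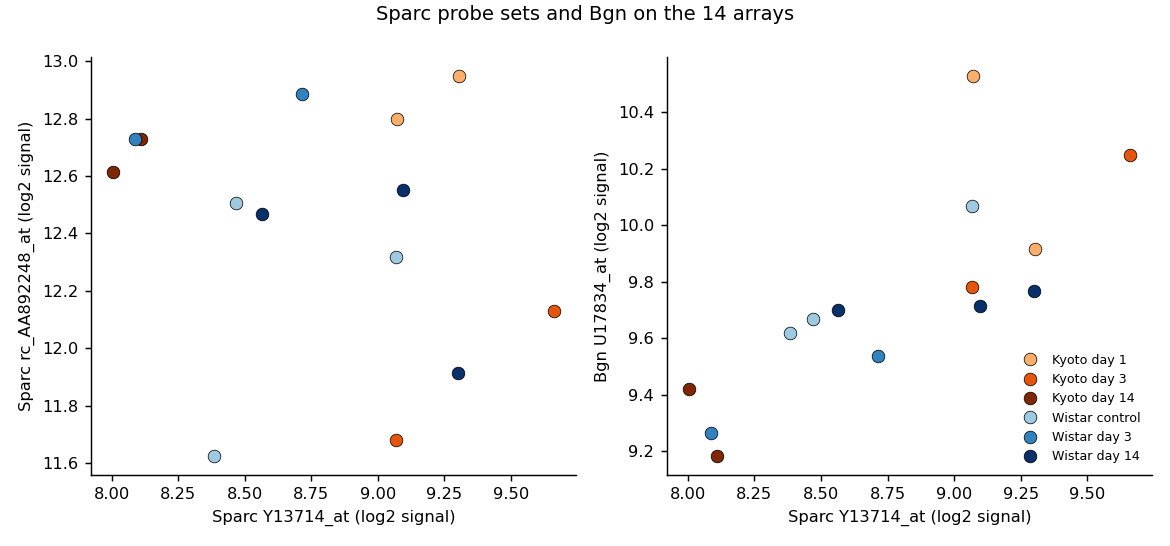
Normalized log2 signal of Sparc rc_AA892248_at (left) and Bgn U17834_at (right) against Sparc Y13714_at; each point is 1 of the 14 arrays, coloured by strain and day, and no axis starts at 0. The 2 Sparc sets show no rising relation over all arrays (r = -0.23, and 0.21 on deviations from the group means). Bgn runs upward with Y13714_at (r = 0.78, and 0.51 on deviations), and both Kyoto day 14 arrays lie at the lower left of that panel.

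The named features whose signal ran most like each gene over the 14 arrays differed between the genes, out of 1501 compared. For Col1a1 they were Ppp1cc (r = 0.76) and Ppp2r5a (0.73), subunits of protein phosphatases, the transcription factor gene Maf (0.73), Eaf1 (0.72), a factor of transcript elongation, and Itga1 (0.71), the collagen receptor subunit integrin alpha 1. For Sparc by rc_AA892248_at they were Hnf4a (0.85), a transcription factor of hepatocytes, Mug1 (0.77), a secreted protease inhibitor of liver, the retinoic acid receptor gene Rara (0.73), Akap1 (0.73), a mitochondrial anchor of protein kinase A, and Aldoa (0.68), a glycolytic aldolase. For Bgn they were Cct3 (0.90), a chaperonin subunit, Csnk2b (0.84), a subunit of casein kinase, the G protein subunits Gnai2 (0.83) and Gnb2 (0.83), and Pdlim1 (0.83), which binds actinin. By Y13714_at, chosen after its values were seen, Sparc ran most like the cyclin Ccnd3 (0.84), the immunophilin Fkbp4 (0.83), the extracellular superoxide dismutase Sod3 (0.78), Bgn (0.78) and Cct3 (0.76). The nearest features of the 2 Sparc sets thus had no gene in common.

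Other matrix genes had mostly lower signals at Kyoto day 14 than at day 1, as the 10 probe sets did. Of 141 genes in lists of matrix pathways, 46 were measured, and 23 besides the 3 genes passed the filter on low signals. The lists were drawn up with earlier results of these arrays known, so counts over them are a description. At day 14 minus day 1, 20 of these 23 were lower and 3 higher, with a median of -0.32, where 50.1% of all 1909 features were lower and their median was 0.00. By limma, 0 of the 23 and 1 of 1909 features (0.0524%) passed an adjusted p of 0.05, and 4 of the 23 had an unadjusted p under 0.05, beside 10.2% of all features. At day 3 minus day 1, 15 of 23 were lower (47.0% of all features), with a median of -0.15, 0 called (0% of features) and 2 at an unadjusted p under 0.05 (5.87% of features). At day 14 minus day 3, 15 of 23 were lower (52.6% of all features), with a median of -0.13, 0 called (0%) and 0 at an unadjusted p under 0.05 (4.61%). Without Kyoto day 1 replicate 1, 18 of 23 were lower at day 14 minus day 1 and 14 at day 3 minus day 1.

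The partner chain gene Col1a2 had 8.31 and 8.50 at day 1, 8.12 and 8.37 at day 3, and 7.59 and 7.25 at day 14 in Kyoto livers. Days 1 and 3 overlapped and both day 14 arrays lay below them, a course unlike that of Col1a1 M27207mRNA_s_at at day 3. Col3a1, for the chain of type III collagen, overlapped between days 14 and 1, with a lowest array of 9.69 at day 14, against 9.92 and 11.22 at day 1. The differences at day 14 minus day 1 were -0.98 ± 0.39 for Col1a2 and -0.73 for Col3a1.

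Collagen-modifying enzymes were lower in 4 of 4 genes at Kyoto day 14 minus day 1, with 0 called, and the differences were -0.60 for the lysyl hydroxylase Plod1, -0.32 for Plod3, -0.09 for P4hb and -0.01 for Ppib. Of the 4 matrix glycoproteins besides Sparc, 3 were lower, with -0.58 for Mgp, an inhibitor of calcification, -0.41 for fibronectin, Fn1, and -0.23 for Agrn, and vitronectin, Vtn, had 0.32. The 3 proteoglycans besides Bgn, all syndecans, had -0.79 for Sdc1, -0.06 for Sdc2 and -0.03 for Sdc4. Sdc1 had 9.80 and 9.61 at day 1, 9.16 and 9.05 at day 3, and 8.95 and 8.88 at day 14, a stepwise order without overlap. The share of all features with such an order was not counted.

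Among proteases and their inhibitors, 4 of 4 were lower at Kyoto day 14 minus day 1: -0.79 for the membrane-bound metalloproteinase Mmp14, -0.66 for A2m, -0.38 for Timp2 and -0.09 for Timp1, with 0 called. Of 3 genes of growth factor and related signals, Igfbp3, which binds insulin-like growth factors, had -1.07 ± 0.32, Pdgfra, a receptor for platelet-derived growth factor, -0.05, and the angiotensin receptor gene Agtr1a 0.10. Igfbp3 had 9.70 and 9.13 at day 1, 8.96 and 8.62 at day 3, and 8.41 and 8.29 at day 14. These days again had no overlap, an order that was not counted over all features. Of the 3 matrix receptors, Ddr1, a collagen receptor kinase, had -0.66, Itgb1 -0.12 and Itga1 0.00.

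In Wistar livers these genes were split about evenly at day 14 minus control, with 12 of 23 lower (54.0% of all features), with a median of -0.06, 0 called and 2 at an unadjusted p under 0.05 (5.19% of all features). Without the array labelled Wistar control 2, 13 of 23 were lower. The difference was 0.01 for Col1a2, -0.37 for Col3a1, -0.66 ± 0.22 for Agtr1a and 0.62 ± 0.26 for Ddr1 (limma adjusted p = 0.895 for Agtr1a and Ddr1). At day 3 minus control, 13 of 23 were lower (54.8% of all features) with a median of -0.12, 0 called and 4 at an unadjusted p under 0.05 (10.5% of all features), and without that array 11 of 23 were lower. Whether the Kyoto and Wistar differences differ from each other was not tested, since the 3 genes were chosen on the Kyoto arrays and the comparisons start from different states.

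**Figure D5:**
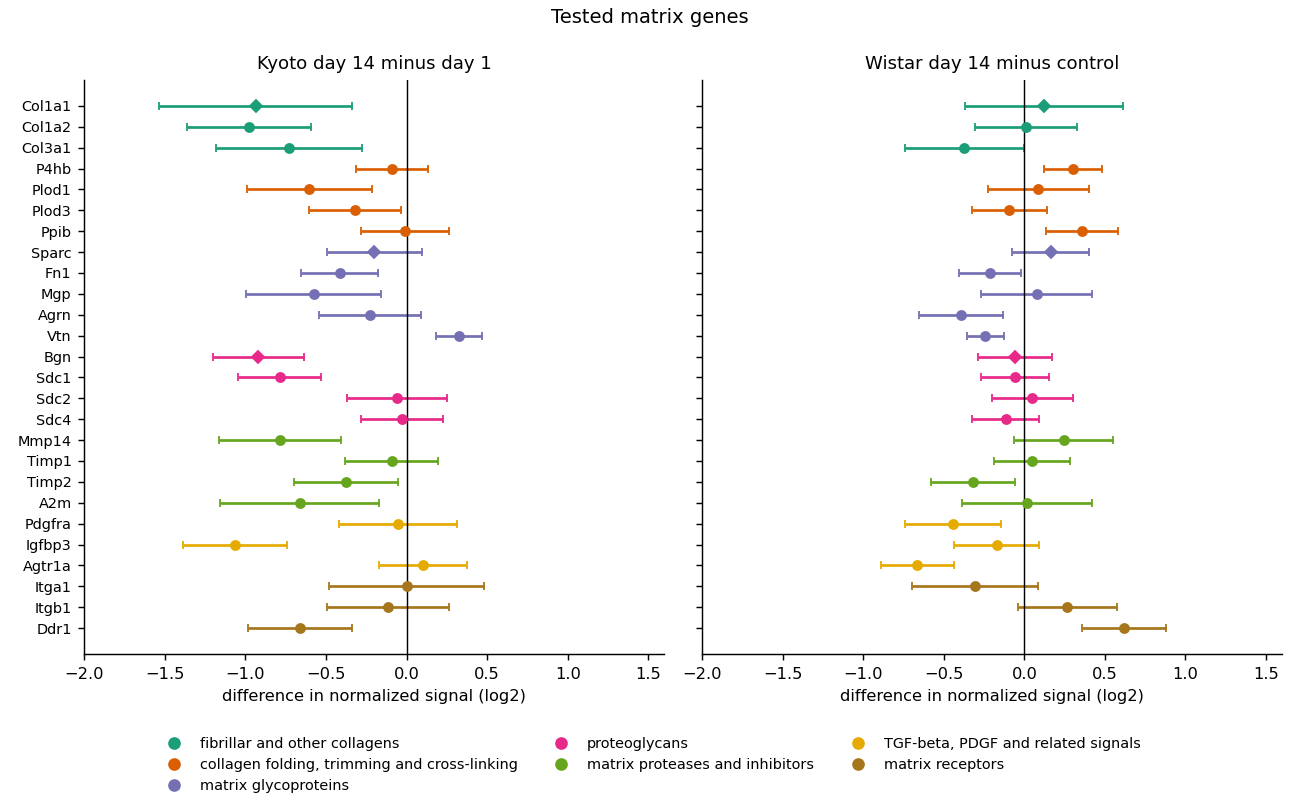
Difference in normalized log2 signal of the 26 tested matrix genes (23 and, as diamonds, Col1a1, Sparc and Bgn) at Kyoto day 14 minus day 1 (left) and Wistar day 14 minus control (right), coloured by list; bars are standard errors of the limma fit. On the left 20 of the 23 circles lie below 0, with Igfbp3 lowest at -1.07, and on the right 12 do.

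Markers of stellate cells and myofibroblasts could be read only in part. Of 30 listed genes, 12 besides the 3 described here were measured, 5 of them also in the matrix lists, and Hgf and Vcam1 lay at the floor on all arrays. The genes Acta2, Des, Gfap and Lrat, which define activated or resting stellate cells, were not analysed here. The summed linear signal of the 12 was 4863 and 5590 on the arrays at Kyoto day 1, 4293 and 5431 at day 3, and 3660 and 3739 at day 14, and it ran from 3452 to 4427 in Wistar controls (to 4253 without the array labelled Wistar control 2). Both Kyoto day 14 arrays thus lay below all earlier Kyoto arrays, and the part of cell number in the day 14 values was not tested. The sum is not a reading apart from the matrix genes. It holds Col3a1, Col1a2 and Igfbp3, which had -0.73, -0.98 and -1.07 at Kyoto day 14 minus day 1. The 7 genes outside the matrix lists differed among themselves at Kyoto day 14 minus day 1. The difference was -0.71 for the intermediate filament gene Vim and -0.48 for the myosin light chain gene Myl9, both too dim to be tested, -0.16 for Reln, a secreted glycoprotein of stellate cells, 0.00 for the tropomyosin gene Tpm1 and 0.04 for Igfbp6, which lay at the floor on 10 arrays. In Wistar livers the sum ran from 3938 to 4107 at day 3 and from 3309 to 4339 at day 14, both overlapping with the control range.

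Markers of other liver cells overlapped between Kyoto day 14 and day 1. The sum of 15 hepatocyte genes ran from 244937 to 245066 at Kyoto day 14, against 243008 to 249111 at day 1. The sum of 8 Kupffer cell and macrophage genes ran from 7286 to 8675 at day 14, against 7957 to 8334 at day 1, and that of 5 endothelial genes, Nos3 at the floor among them, from 929 to 937, against 913 to 1004. The 4 T and NK cell genes had 582 to 615 at day 14, against 608 to 636 at day 1, and 4 cholangiocyte genes, Epcam and Cd24 at the floor among them, had 710 to 777, against 746 to 840. The 3 red blood cell genes had 6896 to 12613 at day 14, against 10275 to 16538 at day 1. All these ranges overlapped between the days, and their part in the results was not tested. The 1 mesothelial gene measured lay at the floor except on 1 Kyoto day 1 array, and no gene of the B cell, neutrophil and smooth muscle lists was analysed here.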

How the data were processed

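The values were linear signal intensity per probe set as deposited by the authors. The submitters' processing notes name MAS5, and its version, target and filters are stated in no source used here. The arrays limit the precision by their number. Of 4502 rows, 24 were control rows, and 375 with a blank on any array were dropped. Blank rows occurred on 3 arrays, Wistar control 3, Wistar day 14 replicate 3 and Kyoto day 1 replicate 1. Medians over complete rows ran from 269.5 to 285.7. Symbols came from the platform annotation, which gave 3700 probe sets 1 symbol, 229 several and 573 none.

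Signals were put on the log2 scale, quantile normalized between arrays (limma 3.58.1, R 4.3.3) and floored at the 25th percentile (6.85, or 115.2 linear). The probe set with the highest mean represented a gene, and the upper 60% of 3181 features by mean, 1909, were tested. Col1a1, Sparc and Bgn passed this filter, with 12.5%, 90.2% and 55.4% of tested features below them. All 14 arrays entered 1 limma fit of 6 group means (lmFit, eBayes with an intensity trend, 8 residual degrees of freedom), with Benjamini-Hochberg adjustment over all features and a threshold of 0.05. A second fit took each of 4110 probe sets as a feature. The fit was tested on simulated data.

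The genes and lists were chosen with earlier results of these data known. All probe sets of the 3 genes are named, up to 4 tested genes of each pathway list by their Kyoto day 14 minus day 1 difference, and the 5 features with the highest correlation to each gene. A ± gives the fit's standard error, or an SD where that is written. Alternatives were other scalings, floors, filters, probe set rules, variance settings, array weights, blocks, fits on fewer groups and leaving out each array. Promoter sequences are from RefSeq (GRCr8).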

Additional observations from a re-analysis of the deposited data

Results flagged for a closer look

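In 3 probe sets, day 14 minus day 3 differences had opposite signs in the 2 strains, with no overlap between the days in either strain. For Sparc rc_AA892248_at, both Kyoto day 14 arrays lay above both day 3 arrays, while all Wistar day 14 arrays lay below both day 3 arrays. The Kyoto difference less the Wistar one was 1.26 (log2). In the deposited signals, before normalization, these Wistar groups overlapped, with 7160 on Wistar day 14 replicate 3, against 6980 and 6159 at day 3. For Bgn U17834_at the directions were the other way round, Kyoto lower and Wistar higher at day 14, with -1.04. For Col1a1 rc_AI231472_s_at, Kyoto was likewise lower and Wistar higher at day 14, with -1.69. The other Sparc sets ran against rc_AA892248_at, lower in Kyoto livers (-1.31, -0.55 and -0.60) and higher in Wistar livers (0.59, 0.80 and 0.29). Bgn rc_AA859830_s_at had -0.69 in Kyoto and -0.003 in Wistar livers. Col1a1 M27207mRNA_s_at was higher in both (0.63 and 0.12), Z78279_g_at had -0.51 and 0.14, and Z78279_at -0.003 and 0.05. These differences between strains were not tested, because the genes were chosen on the Kyoto arrays. Chance flags some probe sets, since each group holds only 2 or 3 arrays, and the share of all probe sets with this pattern was not counted. No array was tested as an outlier within its group, since all groups held fewer than 4 arrays.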

How the results depend on the processing

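No paired analysis was possible because the labels carry no replicate numbers. For the 3 genes and 7 comparisons, 565 of 595 differences under an alternative kept their sign and 30 changed it. Of the changes, 15 were in Wistar livers, 5 between Kyoto days and 10 between the strains. Many alternatives could not change a sign, since most variance settings, the filters and leaving out arrays outside a comparison leave the difference as it was. A second probe set was tried for Sparc only. Col1a1 rc_AI231472_s_at had 0.41 at Kyoto day 3 minus day 1, against -1.57 by the set that represents Col1a1. None of the 255 Wistar differences passed an adjusted p of 0.05 by limma. Between the strains, 7 sign changes were of Col1a1, which lay at 0.07 and ranged from -0.24 to 0.41 on leaving out 1 array, 2 of Bgn (-0.19 by the mean of its sets, -0.02 without Kyoto day 3 replicate 2) and 1 of Sparc (0.02 by its second set). Between Kyoto days, Bgn at day 3 minus day 1 was 0.10 when Kyoto day 1 replicate 1 was left out and 0.03 when replicate 1 of Kyoto day 3 was, and Sparc at day 14 minus day 3 was -0.42 by the mean of its sets. Col1a1 at Wistar day 3 minus control turned to -0.0135 with arrays centred on their medians and to -0.21 with a block for arrays with blank rows. On leaving out 1 array, Col1a1 ranged from -0.40 to 0.41 there, from -0.57 to 0.51 at day 14 minus control and from -0.57 to 0.53 at day 14 minus day 3, with the lowest of the last 2 ranges without Wistar day 14 replicate 2. At day 14 minus control, Sparc ranged from -0.10 (without Wistar control 1) to 0.36 and Bgn from -0.14 to 0.0836 (without Wistar control 3). By its second probe set Sparc had -0.24 at Wistar day 3 minus control and 0.59 at day 14 minus day 3, where the mean of its probe sets gave 0.29. In Kyoto livers the second set gave 0.18 at day 3 minus day 1, -1.13 at day 14 minus day 1 and -1.31 at day 14 minus day 3. Bgn was 0.16 at Wistar day 14 minus control and 0.00344 at day 3 minus control by the mean of its sets. Kyoto day 14 minus day 1 for Bgn was -0.61 without day 1 replicate 1 and -1.23 without day 1 replicate 2. The count of features called ranged, on leaving out 1 array, from 0 to 7 in Wistar day 14 against control (7 without Wistar day 14 replicate 3), 0 to 6 in Wistar day 3 against control, 0 to 74 in Kyoto day 3 against day 1, 0 to 160 in Kyoto day 14 against day 1 (74 and 160 without Kyoto day 1 replicate 2, the lone array then being assumed to vary like the other groups), 0 to 1 in Kyoto day 14 against day 3 and 12 to 91 in Kyoto against Wistar livers on orotic acid (62 with all arrays). With array weights the counts were 1, 18, 0, 1 and 135 in Wistar day 14 and Wistar day 3 against control, Kyoto day 14 against day 1 and day 3, and Kyoto against Wistar livers. With each probe set a feature they were 2 in Wistar day 3 against control, 1 in Wistar day 14 against day 3, 2, 3 and 1 in the Kyoto comparisons and 2 between strains. With all features tested they were 2, 3 and 1 in the Kyoto comparisons and 1 between strains. The mean of all probe sets gave 4 in Wistar day 3 against control and 2 in Kyoto day 14 against day 1; fits on only the groups compared gave 5, 0 and, between strains, 103. Between strains the upper 40% of features gave 40 and the lot batch block 20. Col1a1 was not tested among the upper 40%. The block for blank rows, the second Sparc set, each probe set as a feature and the counts without the 2 arrays that stood apart were chosen after seeing the data.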
